A study of Homo sapiens with 6 samples.

Results

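The erythropoietin-producing hepatocellular (Eph) receptors and their ephrin-B ligands were examined in Caco2, a human colorectal cancer line that forms enterocyte-like cells once confluent. The members were 10 genes, chosen by name: the receptors EPHB1, EPHB2, EPHB3, EPHB4, EPHB6, EPHA1 and EPHA2, and the ligands EFNB1, EFNB2 and EFNB3. Of these, 9 had an annotated probe set, of 19775 genes with one in all, and they gave 17 of the 54613 probe sets on the array that were not controls. EPHB2 was not analysed here, since no probe set carried its name in the annotation used. Resistant cells grew in 10 µM methotrexate (MTX), an antifolate, after selection with stepwise doses. That dose follows the study's methods, and the labels write it in a form that could also be read as a higher one. RNA of these cells was hybridised to 3 Affymetrix HG U133 Plus 2.0 arrays. Parental cells are sensitive to MTX, and their RNA was hybridised to the other 3 arrays. According to the study's methods, the resistant cells were kept with dialyzed serum in medium free of thymidine, glycine and hypoxanthine, while Ham's F12 with undialyzed serum was used for parental cells. Medium and resistance therefore cannot be told apart.

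Eph receptors are receptor tyrosine kinases whose ligands, the ephrins, are held on the surface of neighbouring cells, so that a contact between cells can send a signal into both of them. Ephrin-B ligands span the membrane and bind mainly EphB receptors, while ephrin-A ligands are anchored to it by a lipid and bind mainly EphA receptors. In the mouse intestine EphB2 and EphB3 are made by cells near the crypt base under Wnt control and ephrin-B ligands by differentiated cells above them, and the repulsion between them keeps cells in position along the crypt.

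Signals were expressed as multiples of the median signal of their own array, which was between 10.6 and 11.5 intensity units on resistant arrays and between 11.1 and 12.8 units on parental arrays. As the array holds many probe sets with little signal and the table holds no detection calls, a value near 1 times the array median was read as weak. Over tested probe sets resistant arrays correlated among themselves at 0.968 to 0.971, while parental array 3 correlated at 0.946 and 0.949 with the others of its group. It correlated at 0.935 to 0.939 with resistant arrays, above the 0.914 to 0.929 of parental arrays 1 and 2. Of the 17 probe sets, 11 had a mean level no lower than the array median (1 times) and were tested, and they stood for 8 genes. The members had been proposed with this comparison already in view, so their differences are given as a description, without p-values. Levels of different probe sets were not set against each other, as each binds its target differently.

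EPHB3 was higher in resistant cells and EFNB2 and EPHB6 were lower, while the other 5 genes tested did not reach the call. A probe set was called when it changed at least 2-fold with an adjusted p below 0.05 in limma, which was so for 4.67% of the 26563 probe sets tested (2.77% higher and 1.90% lower in resistant cells). Of the 11 member probe sets, 2 were called higher and 3 lower, and nothing was read from this count because the members were chosen on this contrast. The 2 called higher were those of EPHB3, and the 3 called lower were both EFNB2 probe sets and that of EPHB6. The 3 resistant arrays lay above the 3 parental arrays for 2 member probe sets and below them for 4, where 17.7% and 14.4% of the tested probe sets (32.1% in all) did so. The median log2 difference was -0.33 over the 11 member probe sets, beside 0.00 over the tested probe sets.

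**Figure D1:**
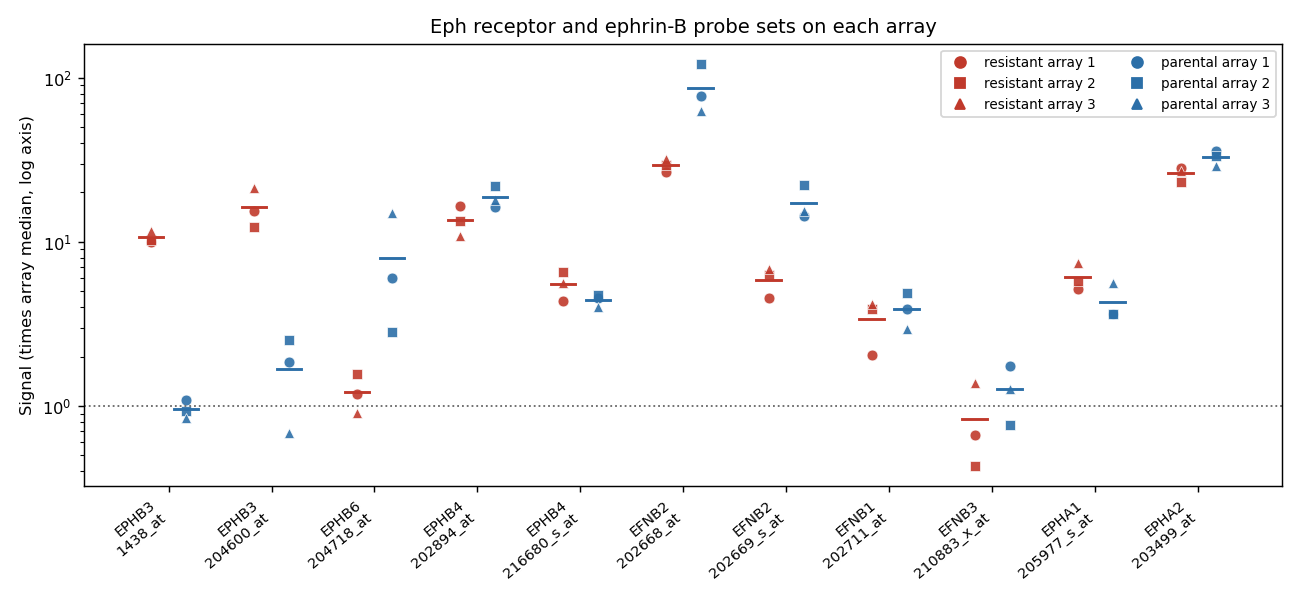
Signal of the 11 tested member probe sets on each array, in multiples of the array median on a log axis. Resistant arrays are red and stand left of the blue parental arrays, with a marker shape for each array number, a short line at the mean of the 3 arrays and a dotted line at 1 times the array median. EPHB3 lies between 10.01 and 21.3 on resistant arrays and at 2.53 or less on parental arrays, and EFNB2 202668_at lies at 31.9 or less on resistant arrays and at 62.4 or more on parental arrays.

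EPHB3, a receptor of crypt base and Paneth cells in the mouse gut and a target of Wnt signalling, had the largest difference among the members. Its probe set 204600_at read 15.4, 12.3 and 21.3 times the array median on resistant arrays 1, 2 and 3, against 1.85, 2.53 and 0.681 times on parental arrays 1, 2 and 3. Even the lowest resistant array was 4.86 times the highest parental array. The log2 difference was 3.44 ± 0.42 (standard error, SE, n = 3 each), or 10.8-fold higher in resistant cells.

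The second probe set of EPHB3, 1438_at, read 10.01, 10.3 and 11.7 times the array median on resistant arrays, against 1.09, 0.930 and 0.850 times on parental arrays. Its replicates lay closer together, and the lowest resistant array was 9.18 times the highest parental array. The log2 difference was 3.48 ± 0.20 (SE, n = 3 each), or 11.2-fold higher. Both probe sets of EPHB3 thus gave a difference of about the same size, although 204600_at varied 3.71-fold between parental arrays and 1438_at only 1.28-fold. Of 11849 genes, each taken by its brightest probe set, 30 had a larger increase than EPHB3.

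Because EPHB3 was close to the array median in parental cells, the size of its fold change depended on how low signals were treated. With 0.5 times the array median added to each value, the difference was 8.08-fold for 204600_at and 7.65-fold for 1438_at. For 204600_at, the difference was 7.36-fold when parental array 3 was left out and 14.2-fold when parental array 2 was, and for 1438_at it lay between 10.55-fold and 11.95-fold when single arrays were left out. Both probe sets were called higher under each of these settings. The parental mean of 1438_at was 0.956 times the array median, so it reached the filter only through the resistant arrays and nothing was read from its calls.

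The array-to-array pattern of EPHB3 204600_at was compared with that of other genes over the 6 arrays, as a description that carries no test. Its 3 closest were CXCL11, a chemokine induced by interferon, with a Pearson r of 0.996, PLCL2, a phospholipase C-like protein, with 0.996, and ZNF706, a zinc finger gene, with 0.995. An r above 0.99 was found for 9 of 11841 genes, and the points share the split between resistant and parental arrays. CXCL11 differed by 2.59 on the log2 scale, PLCL2 by 1.14 and ZNF706 by 0.33, as r takes no account of the size of a difference.

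EFNB2, an ephrin-B ligand of differentiated mouse gut epithelium and of arterial endothelium, differed in the other direction. Probe set 202668_at read 26.5, 29.3 and 31.9 times the array median on resistant arrays, against 77.8, 121.1 and 62.4 times on parental arrays. The lowest parental array was 1.96 times the highest resistant array, so the groups did not overlap. The log2 difference was -1.52 ± 0.22 (SE, n = 3 each), which is 2.88-fold lower in resistant cells.

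Probe set 202669_s_at of EFNB2, of a type that can read several transcripts, read 4.56, 6.27 and 6.80 times the array median on resistant arrays, against 14.3, 22.2 and 15.5 times on parental arrays. Again the groups did not overlap, and parental array 2 was the highest for both probe sets. The log2 difference was -1.55 ± 0.22 (SE, n = 3 each), or 2.94-fold lower. Leaving out single arrays gave 2.39-fold to 3.33-fold lower for 202668_at and 2.57-fold to 3.20-fold lower for 202669_s_at, and both were called each time. A larger decrease than that of EFNB2 was found in 159 of 11849 genes.

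Promoters of EPHB3 and EFNB2 are shown because both genes were called whichever array was left out and differed in opposite directions. They are the 250 bases before the annotated start of each gene, 5′ to 3′ on the strand of the gene, from RefSeq in build GRCh38.p14. EPHB3 is at chr3:184561535-184561784 on the plus strand, and EFNB2 at chr13:106535663-106535912 on the minus strand. Capitals mark GC boxes (GGGCGG or its reverse complement CCGCCC) and an E-box bound by zinc finger repressors such as SNAI1 (CACCTG or CAGGTG).
EPHB3: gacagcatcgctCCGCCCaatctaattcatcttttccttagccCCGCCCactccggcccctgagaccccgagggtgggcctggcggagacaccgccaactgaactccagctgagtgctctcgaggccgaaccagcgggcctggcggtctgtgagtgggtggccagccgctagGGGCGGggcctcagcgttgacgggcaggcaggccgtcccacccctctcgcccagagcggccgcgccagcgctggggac
EFNB2: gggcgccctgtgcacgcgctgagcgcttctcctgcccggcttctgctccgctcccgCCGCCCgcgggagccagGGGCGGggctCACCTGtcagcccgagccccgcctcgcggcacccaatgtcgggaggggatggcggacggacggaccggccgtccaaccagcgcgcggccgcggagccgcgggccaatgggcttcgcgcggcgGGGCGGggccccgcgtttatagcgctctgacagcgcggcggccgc

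A promoter was found in the table for 8 of the 9 members that have a probe set. The EPHB3 window held 3 GC boxes, 21 CpG dinucleotides and a GC content of 70.0%. The EFNB2 window held 3 GC boxes, 1 E-box whose first base lies 167 bases before the start, 40 CpG dinucleotides and a GC content of 78.4%. Over 27305 promoters of the same length the median GC content was 58.0% and the median number of CpG dinucleotides 11, and 42.3% held a GC box and 17.5% the E-box. The core letters of the TCF/LEF site that Wnt signalling acts through (CTTTG or CAAAG) were not in either window, and 42.2% of the promoters held them. Both strands were searched and no motif overlapped one of another kind, and a match of letters is a description and not a shown binding site.

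EPHB6, an Eph receptor whose kinase domain is not active, was lower in resistant cells. Its only probe set read 1.19, 1.58 and 0.904 times the array median on resistant arrays, against 5.99, 2.83 and 15.01 times on parental arrays. The groups did not overlap, and the lowest parental array was 1.80 times the highest resistant array, but the parental arrays differed 5.31-fold among themselves. The log2 difference was -2.41 ± 0.51 (SE, n = 3 each), or 5.31-fold lower.

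That value had the largest SE of the called differences. It was 3.45-fold lower without parental array 3 and 7.95-fold lower without parental array 2. EPHB6 was no longer called without parental array 1, without resistant array 1 or without resistant array 3, nor without the intensity trend in the variance. The SD of EPHB6 over the parental arrays was 1.21 on the log2 scale, where the median over tested probe sets was 0.28, and that of EPHB3 204600_at was 0.99. On parental array 3 EPHB6 was at its highest, and EPHB3 204600_at and EFNB2 202668_at were each at their lowest among the parental arrays.

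EPHB4, a receptor for ephrin-B2 known from veins and from colonic epithelium, had probe sets that disagreed. Probe set 202894_at read 16.7, 13.5 and 10.9 times the array median on resistant arrays, against 16.4, 21.9 and 18.03 times on parental arrays. Probe set 216680_s_at read 4.38, 6.58 and 5.63 times on resistant arrays, against 4.53, 4.75 and 4.04 times on parental arrays. The groups overlapped for both, and the log2 differences had opposite signs, -0.47 ± 0.19 and 0.30 ± 0.20 (SE, n = 3 each). Their mean was -0.08, so no direction is given for EPHB4.

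EPHB1, a receptor best known from the nervous system, was weak. Its 3 probe sets lay between 0.0391 and 0.721 times the array median and were not tested. The strongest, 210753_s_at, read 0.0631, 0.151 and 0.0696 times on resistant arrays, against 0.721, 0.602 and 0.106 times on parental arrays. Parental arrays 1 and 2 were the highest and parental array 3 overlapped with the resistant arrays.

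EFNB1, the ephrin-B ligand encoded on the X chromosome, read 2.05, 3.89 and 4.20 times the array median on resistant arrays, against 3.90, 4.86 and 2.96 times on parental arrays. The groups overlapped, and resistant array 1 was the lowest. The log2 difference was -0.25 ± 0.30 (SE, n = 3 each), and it was 0.08 without resistant array 1.

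EFNB3, an ephrin-B ligand known from the nervous system, was close to the limit of testing. Probe set 210883_x_at, of a type that shares probes with other transcripts, had a mean of 1.05 times the array median and was the member just inside the filter. Its mean was 0.831 times on resistant arrays and 1.27 times on parental arrays, so it reached the filter only through the parental arrays. It read 0.667, 0.434 and 1.39 times on resistant arrays, against 1.76, 0.766 and 1.27 times on parental arrays, and the groups overlapped. Its log2 difference was -0.70 ± 0.57 (SE, n = 3 each). Probe set 205031_at, with a mean of 0.579 times, was the member just outside and ranged over the 6 arrays between 0.0938 and 1.16 times.

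EPHA1, a receptor of epithelial cells, read 5.19, 5.76 and 7.40 times the array median on resistant arrays with probe set 205977_s_at, against 3.64, 3.63 and 5.61 times on parental arrays. The groups overlapped, since parental array 3 was above resistant array 1, and the log2 difference was 0.53 ± 0.23 (SE, n = 3 each). The other 2 probe sets of EPHA1 lay between 0.0849 and 0.802 times and were not tested. EPHA2, an epithelial receptor often abundant in tumors, read 28.4, 23.1 and 27.0 times on resistant arrays, against 35.9, 33.6 and 29.2 times on parental arrays. Its groups did not overlap by a narrow margin, with the lowest parental array 1.03 times the highest resistant array, and the log2 difference was -0.33 ± 0.14 (SE, n = 3 each).

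**Figure D2:**
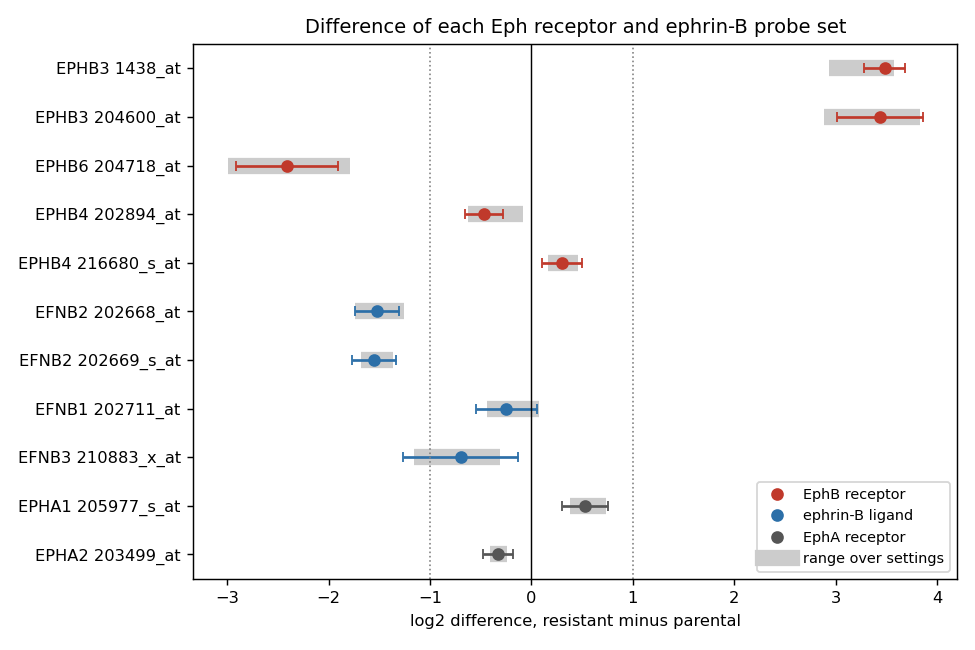
Log2 difference between resistant and parental cells for the 11 tested member probe sets, grouped by role. Points are the difference, bars its SE (n = 3 each), grey bands the range over the alternative settings (single arrays left out included, and for 202894_at the mean of both EPHB4 probe sets), and dotted lines mark 2-fold. EPHB3 lies at 3.44 and 3.48, EFNB2 at -1.52 and -1.55 and EPHB6 at -2.41, while the remaining members lie within 2-fold.

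The crypt receptor was set against the ephrin-B ligands on each array, as log2 of EPHB3 minus the mean log2 of EFNB1, EFNB2 and EFNB3, relative to the mean of the parental arrays. EPHB3 stood alone for the crypt receptors. The balance was 4.52, 4.05 and 4.20 on resistant arrays 1, 2 and 3, against 0.17, 0.71 and -0.88 on parental arrays 1, 2 and 3. The groups were far apart, and the resistant arrays lay closer together than the parental arrays. The difference was 4.26 ± 0.49 (SE, n = 3 each) on the log2 scale.

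Most of this balance came from EPHB3, whose own values relative to the parental mean were 3.39, 3.06 and 3.86 on resistant arrays. EFNB2 gave -1.66, -1.52 and -1.39 on the same arrays. EFNB1 and EFNB3 were not uniform, with -0.90 and -0.84 on resistant array 1 but 0.13 and 0.22 on resistant array 3. The difference in balance was 4.32 without EFNB3, 3.82 without parental array 3 and 3.73 with the offset on low signals.

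**Figure D3:**
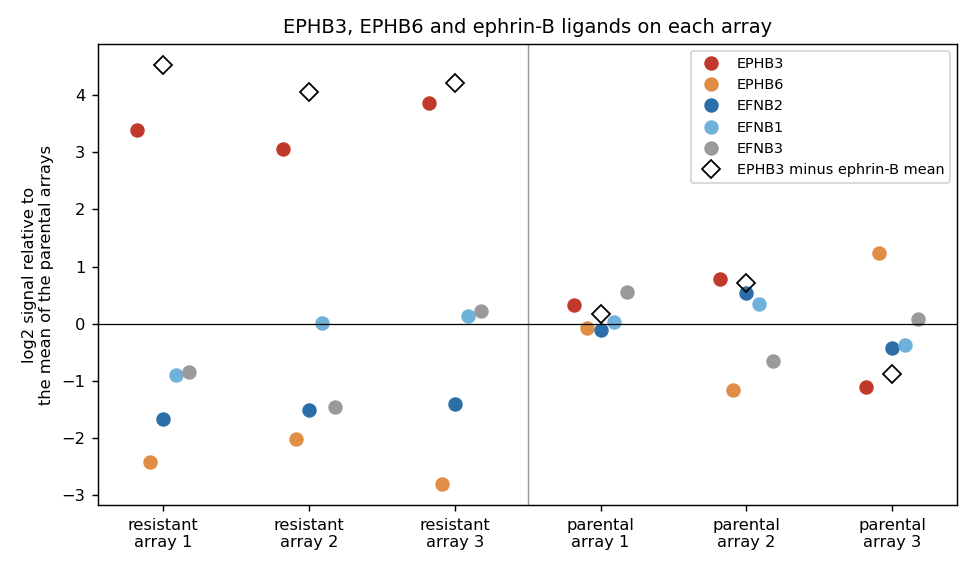
Log2 signal of EPHB3, EPHB6, EFNB2, EFNB1 and EFNB3 on each array relative to the mean of the parental arrays, with the balance of EPHB3 against the ephrin-B mean as open diamonds. Resistant arrays are on the left and parental arrays on the right. The balance lies between 4.05 and 4.52 on resistant arrays and between -0.88 and 0.71 on parental arrays, where the spread of EPHB3 and EPHB6 is widest.

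The rest of the Eph family was tested in the same fit, as these genes were not used to choose the members. This list and the lists below were still chosen with earlier results of these data known, which limits their p-values. Of 12 other Eph receptors and ephrin-A ligands, 5 were bright enough to be tested, all of them ephrin-A ligands, and EFNA3 only through the resistant arrays. EFNA2 rose and none fell, where 7.37% of 11849 genes rose and 5.05% fell at an adjusted p below 0.05. The median log2 difference of the 5 was 0.27, beside 0.02 over all genes.

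EFNA2, a ligand of EphA receptors, read 5.72, 7.51 and 7.37 times the array median on resistant arrays, against 2.07, 3.16 and 3.83 times on parental arrays. The groups did not overlap, and the log2 difference was 1.22 ± 0.25 (SE, n = 3 each, adjusted p = 0.0150 in limma). The adjusted p was 0.0751 without resistant array 2, 0.0735 without resistant array 3 and 0.0514 without the intensity trend. EFNA2 has another 2 probe sets, which were too weak to be tested.

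EFNA3 read 3.86, 1.74 and 2.13 times the array median on resistant arrays, against 0.784, 0.234 and 1.83 times on parental arrays, with an overlap through parental array 3. Its log2 difference was 1.80 ± 0.67 (SE, n = 3 each, adjusted p = 0.116 in limma), which is not past the test. Its parental mean was 0.950 times, so EFNA3 reached the filter only through the resistant arrays and nothing was read from its tests. The difference was 2.50 without parental array 3, 1.02 without parental array 2 and 1.18 with the offset on low signals. EFNA1 differed by 0.27 ± 0.18 (adjusted p = 0.376 in limma), EFNA4 by 0.00 ± 0.23 (adjusted p = 0.993) and EFNA5 by -0.01 ± 0.18 (adjusted p = 0.971), each as SE with n = 3. None of the 7 remaining EphA receptors listed was bright enough to be tested.

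Proteins that carry Eph and ephrin signals include kinases of the Src and Abl families, exchange factors, adaptors and phosphatases, and the protease ADAM10, which sheds ephrins. Of 41 such partner genes, 35 had a probe set with 1 gene name and 31 were tested. Of these, 2 rose (KALRN and VAV2) and 3 fell (CHN1, ABL2 and PTPRO), and 26 did not pass, with a median log2 difference of -0.10. That is 6.45% higher and 9.68% lower, beside 7.37% and 5.05% of all 11849 genes, whose median was 0.02. With so few genes, nothing was read from the count. The count includes CHN1, which reached the filter only through the parental arrays. It depended strongly on parental array 3, without which 2 rose and 8 fell.

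KALRN, an exchange factor that acts downstream of EphB receptors in neurons, read 8.79, 7.25 and 7.62 times the array median on resistant arrays, against 3.74, 3.30 and 3.66 times on parental arrays. It rose by 1.14 ± 0.17 on the log2 scale (SE, n = 3 each, adjusted p = 0.00344 in limma). VAV2, an exchange factor recruited by activated Eph receptors, rose by 0.91 ± 0.17 (adjusted p = 0.0114 in limma) with its brighter probe set, while its other probe set differed by 0.14 and did not pass. KALRN passed under each setting tried, and VAV2 had an adjusted p of 0.0607 in limma without resistant array 2.

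CHN1, a chimaerin that acts downstream of EphA4 in mouse neurons, read 0.369, 0.462 and 0.278 times the array median on resistant arrays, against 2.16, 1.76 and 1.39 times on parental arrays. All resistant values were below the array median, so CHN1 reached the filter only through the parental arrays and nothing was read from its passing the test. Its log2 difference was -2.27 as fitted and -1.37 with the offset on low signals. ABL2, a kinase of the Abl family, fell by 1.19 ± 0.27 on the log2 scale (adjusted p = 0.0220 in limma), but only 1 of its 3 tested probe sets passed. Of the arrays left out singly, ABL2 passed only without parental array 3. PTPRO, a phosphatase that acts on Eph receptors in chick neurons, fell by 0.80 ± 0.19 (adjusted p = 0.0294 in limma) with 1 of its 2 tested probe sets. It did not pass without parental array 1, resistant array 1 or resistant array 2, nor without the intensity trend.

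Of the partners that did not pass, 6 are given here, chosen after their values were seen. RGS3, which binds ephrin-B through its PDZ domain, differed by -0.50 ± 0.15 (adjusted p = 0.0648 in limma), and its other probe set differed by 0.90. DVL2 differed by -0.66 ± 0.23 (adjusted p = 0.0989), the adaptor NCK2 by 0.15 ± 0.13 (adjusted p = 0.494) and the PDZ protein SDCBP by 0.06 ± 0.15 (adjusted p = 0.827). ADAM10 differed by -0.21 ± 0.10 (adjusted p = 0.230) and SRC by 0.17 ± 0.18 (adjusted p = 0.586).

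Genes of the crypt base and of the differentiated surface were counted next, because in mouse gut EphB receptors mark the one compartment and ephrin-B ligands the other. Of 20 crypt genes and Wnt targets 15 were tested, and 5 rose and 1 fell (SMOC2, which was below the array median on every resistant array), with a median log2 difference of 0.48. Of 20 surface genes 8 were tested, and 4 rose and none fell, with a median log2 difference of 0.85. Each list thus held genes that rose, beside the 7.37% higher and 5.05% lower over all genes.

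Among the crypt genes PROM1, a membrane protein of stem and progenitor cells, rose by 1.15 ± 0.13 on the log2 scale (SE, n = 3 each, adjusted p = 0.000974 in limma). CDCA7, a DNA-binding protein of dividing cells, rose by 1.14 ± 0.16 (adjusted p = 0.00221 in limma) with 1 of its 2 tested probe sets. CD44, a hyaluronan receptor and Wnt target, rose by 0.86 ± 0.14 (adjusted p = 0.00508 in limma), as did 7 of its 9 tested probe sets. MYC and ETS2 rose by 0.56 ± 0.10 and 0.72 ± 0.10 (adjusted p = 0.00627 and 0.00309 in limma). For ETS2, 2 of its 3 tested probe sets passed.

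SMOC2, a matrix protein of crypt base cells, read 0.369, 0.0755 and 0.478 times the array median on resistant arrays, against 6.20, 3.27 and 1.24 times on parental arrays. It too reached the filter only through the parental arrays, and nothing was read from its passing the test. Its log2 difference was -3.63 as fitted, -2.16 with the offset on low signals and between -4.25 (without parental array 3) and -2.80 (without resistant array 2) with single arrays left out. The stem cell receptor LGR5 differed by 1.27 ± 0.36 (adjusted p = 0.0525 in limma), the Wnt target AXIN2 by 0.29 ± 0.20 (adjusted p = 0.392) and SOX9 by -0.13 ± 0.14 (adjusted p = 0.594), and these did not pass. The other tested probe set of LGR5 differed by 3.03 and did not pass either.

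Among the surface genes CA2, a carbonic anhydrase of colonocytes, rose by 2.43 ± 0.31 on the log2 scale (SE, n = 3 each, adjusted p = 0.00160 in limma). DPP4, a brush border peptidase, rose by 1.75 ± 0.14 (adjusted p = 9.76e-05 in limma), and so did its 3 tested probe sets. KRT20, a keratin of mature enterocytes, rose by 1.57 ± 0.24 (adjusted p = 0.00370 in limma) and VIL1, which bundles actin in microvilli, by 0.80 ± 0.13 (adjusted p = 0.00504 in limma). For VIL1, 2 of its 4 tested probe sets passed. The other tested surface genes did not pass. CDHR5 differed by 0.91 ± 0.32 (adjusted p = 0.0973 in limma) and CEACAM1 by 0.47 ± 0.14 (adjusted p = 0.0644), with 1 of its 5 tested probe sets past the test. CDHR2 differed by 0.14 ± 0.33 (adjusted p = 0.823 in limma) and CYP3A4 by 0.03 ± 0.24 (adjusted p = 0.960). The remaining 12 genes of the list were not tested.

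**Figure D4:**
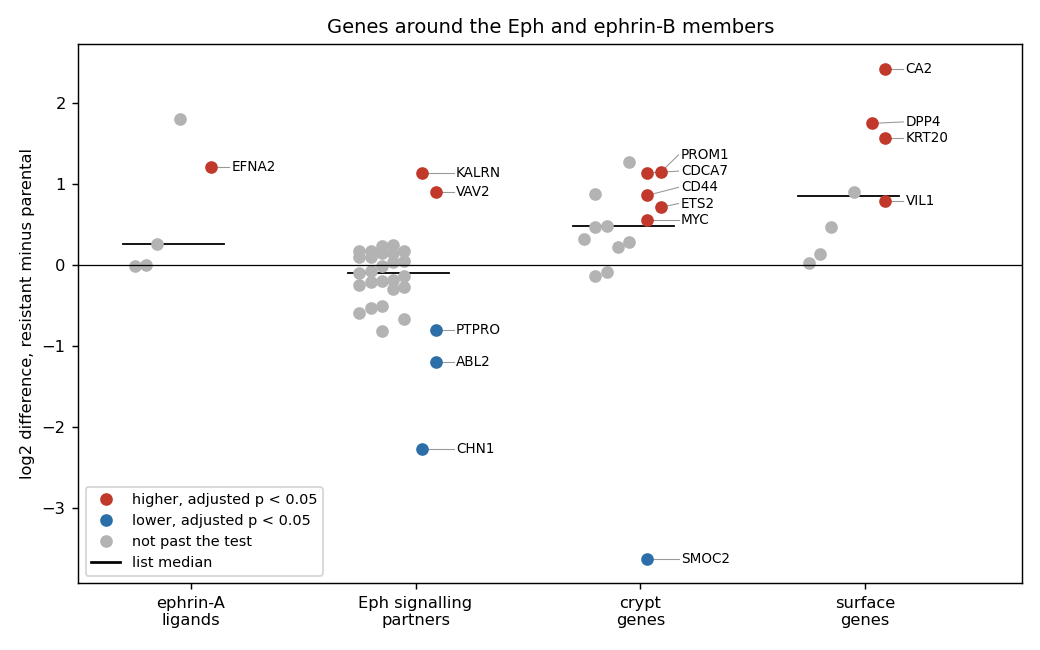
Log2 difference between resistant and parental cells for the tested genes of the ephrin-A, Eph partner, crypt and surface lists, each by its brightest probe set. Red and blue points passed an adjusted p of 0.05 in limma, grey points did not, and short lines are the list medians. EFNA2, KALRN, VAV2, 5 crypt genes and 4 surface genes lie above 0 past the test, and SMOC2, CHN1, ABL2 and PTPRO below, where SMOC2 and CHN1 reached the filter only through the parental arrays.

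The arrays were checked against cell type markers. Of 10 markers of intestinal epithelium, 8 had a mean at or above the array median, CDX1 and CDX2 did not, and their summed level was 2205 to 2286 times the array median on resistant arrays, against 1457 to 1863 times on parental arrays. As EFNB2 and EPHB4 are also known from vessels, 6 endothelial markers were summed, which gave 7.82 to 8.87 times on resistant arrays, against 8.81 to 13.4 times on parental arrays. Of these, VWF, CDH5, KDR and TEK had means below the array median, and none of the 6 was at 0. The sum of 6 fibroblast markers was 7.49 to 8.38 times on resistant arrays and 4.95 to 5.70 times on parental arrays. Of these 6, COL1A1 and LUM were bright enough to be tested, and LUM only through the resistant arrays. COL1A1 differed by -0.15 ± 0.18 on the log2 scale (SE, n = 3 each, adjusted p = 0.633 in limma), and LUM averaged 2.57 ± 0.94 times the array median on resistant arrays and 0.272 ± 0.077 times on parental arrays (SD, n = 3 each). The sum of 6 leukocyte markers was 10.2 to 14.0 times on resistant arrays and 11.2 to 19.5 times on parental arrays. No marker was at 0. The labels name only Caco2 cells, a cultured line, and whether other cells had a part in the values above was not tested. Fewer cells making a transcript and less RNA per cell cannot be told apart in these bulk samples.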

How the data were processed

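The authors deposited a linear intensity for each probe set on 6 arrays, 3 of resistant and 3 of parental Caco2 cells. MAS5 is named in the submitters' notes, with a version not given in the sources used here, and the ratios to parental cells of the study's methods were not used. No column fell outside the samples (0 columns), and no pair of arrays was identical (0 pairs).

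After 62 control probe sets were left out, exact zeros were set to 0.05 units and log2 of each intensity over its array median was taken. Probe sets whose mean reached the array median (1 times), 26563 in number, were fitted two-sided with limma 3.58.1 in R 4.3.3 (lmFit and eBayes, intensity trend), and p-values were adjusted after Benjamini and Hochberg. The fit was tested on simulated data. No exact permutation test was used, since 3 against 3 arrays cannot go below p = 0.1. As the labels do not say whether the arrays came from separate cultures, the p-values cover only the variation among these samples, and that may be technical.

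Names came from a platform annotation updated to RefSeq GRCh38.p14. Of 54613 probe sets, 41091 had 1 symbol, 1801 had several and 11721 were unnamed here. A gene was represented by its brightest tested probe set. Members, lists and tests were chosen with earlier results of these data known. Named were the members, the tested ephrin-A ligands, up to 4 genes of each list with the largest change past the test, and the 3 genes most like EPHB3. PTPRO, RGS3, DVL2, NCK2, SDCBP, ADAM10, SRC, MYC, ETS2, LGR5, AXIN2, SOX9, COL1A1 and LUM were added after their values were seen. So were CDHR5, CEACAM1, CDHR2 and CYP3A4. The balance of crypt receptors against ligands was planned with EPHB2 and EPHB3 and uses EPHB3 alone.

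The alternatives were no further scaling, quantile normalization, a filter of 3 times the median or none, and low signals raised to a percentile of the array. Others were an offset of 0.5 times the median, no intensity trend, the replicate block and each array left out. The last were a t-test with equal variances, other fold thresholds and the mean of a gene's probe sets. The balance without EFNB3 was added after seeing the data.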

Additional observations from a re-analysis of the deposited data

How the results depend on the processing

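With EPHB3 close to the array median in parental cells and no detection calls in the table, the size of its fold change is limited by the weak parental signal. The balance of EPHB3 against the ephrin-B ligands lay between 3.73 and 4.61 over the settings tried, but some of them could not move it. Scaling by array cancels in this difference, and a block on groups of equal size leaves it unchanged. The called directions of EPHB3, EFNB2 and EPHB6 did not change under any setting. Among EPHB3, EFNB2 and EPHB6, only EPHB6 lost its call when single arrays were left out. With the t-test below, 204600_at of EPHB3, both EFNB2 probe sets and EPHB6 were not called. As the members were chosen on this contrast, these calls are a description and lend no support. With only 3 arrays in a group, parental array 3 moved most counts.

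The strictest setting was a t-test with equal variances on the same log2 values and filter, with Benjamini-Hochberg adjustment. It does not repeat the GeneSpring filters and error model of the study, so its counts are not those of the study's own test. This t-test called 188 of the 26563 probe sets (127 higher and 61 lower) in place of 1240 (735 and 505), 187 of them shared. It called 1 of the 11 member probe sets in place of 5, and none (0) of the other Eph and ephrin-A genes in place of 1. That member was 1438_at of EPHB3, which reached the filter only through the resistant arrays. With this t-test 1 partner gene passed in place of 5, 2 crypt genes in place of 6 and 2 surface genes in place of 4. With no fold threshold 2663 probe sets were called. Without the intensity trend none (0) of the other Eph and ephrin-A genes and 3 partners passed. At least 2-fold was reached by 3 of the partners and 3 of the crypt genes past the test, and with the mean of a gene's probe sets 2 partners passed.

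Leaving out single arrays gave 729 to 2240 called probe sets, with 2240 (1242 higher and 998 lower) without parental array 3, 729 (404 and 325) without resistant array 1, 760 (449 and 311) without resistant array 2 and 794 (399 and 395) without resistant array 3. It gave 4 to 5 member probe sets, 0 to 2 other Eph and ephrin-A genes (0 without resistant array 2 or 3, 2 without parental array 3), 2 to 10 partners, 4 to 10 crypt genes (9 higher and 1 lower without parental array 3) and 4 to 5 surface genes. The 2 other Eph and ephrin-A genes without parental array 3 include EFNA3, which reached the filter only through the resistant arrays. Apart from parental array 3, with 10 partners, each array left out gave 2 or 3 partners. The sign of EFNB1, EFNA4 and EFNA5, none of them past the test, turned. EFNB1 lay between -0.44 and 0.08 (without resistant array 1) with single arrays left out. EFNA4 was at -0.0181 with quantile normalization and -0.0779 without further scaling, and between -0.18 (without resistant array 3) and 0.17 with single arrays left out. EFNA5 lay between -0.17 and 0.10 (without parental array 3) with single arrays left out. The cause of these shifts was not tested.

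With the replicate number as a block, 5 member probe sets, 1 other Eph or ephrin-A gene, 5 partners, 7 crypt genes and 4 surface genes passed. The balance stayed at 4.26, which such a block cannot move. Deviations of arrays with the same number did not move together (r = -0.0182, -0.0218 and -0.0165 for numbers 1, 2 and 3), so the numbers were not read as pairs.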
